A study of Bostrychia moritziana with 3 samples.

Results

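Of the 36534 assembled transcripts listed for the red alga Bostrychia moritziana, 46 stood at 10 RPKM or more in both the tetrasporophyte and the male gametophyte but at 0.3 RPKM or less in the female gametophyte. RPKM counts reads per kilobase of transcript, scaled to the mapped reads of the library, and a value is a level of RNA in a library made from thalli, so fewer cells of a type and less RNA per cell cannot be told apart. The 46 were picked on these very levels, so the levels describe the set and test nothing. The comparison asks which RNAs the diploid spore-bearing stage shares with the male and not with the female.

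RNA sequencing was done on tetrasporophytes with mature sporangia, male gametophytes forming clusters of spermatangia and female gametophytes forming carpogonial branches. All came from unialgal cultures of strain 2746, kept in IMR medium at 20°C with 16 h of light and 8 h of dark. There was 1 library for each stage, so nothing is known of the spread between replicates, no p-value was computed, and each difference is one between libraries. All 46 transcripts are listed in all 3 files. The sources used here name neither read totals nor transcript lengths, and the levels therefore carry no counting interval.

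Red algae such as Bostrychia alternate between haploid gametophytes of separate sexes and a diploid tetrasporophyte, which arises after fertilization and returns to haploid spores by meiosis. Where sex is set in the haploid phase by a chromosome pair, females carry a U chromosome, males a V chromosome and the diploid stage both. A gene found only on the V chromosome can thus be transcribed in male and tetrasporophyte and is missing from the female genome. RNA levels alone do not separate such a gene from one that all stages carry and the female does not transcribe, and linkage to sex was not measured here. The files pair the transcript numbers with no gene name, function or sequence, so roles cannot be given, the stages could not be checked against marker genes, and few transcripts are named.

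Of the 46 transcripts, 30 stood under 20 RPKM in the tetrasporophyte and 34 stood at 20 RPKM or more in the male. In the tetrasporophyte they ran between 10.1 and 424 RPKM with a median of 15.4, and in the male between 10.01 and 243 RPKM with a median of 26.4. In the female they ran between 0 and 0.27 RPKM with a median of 0.015. The quartiles were 12.025 and 24.6 RPKM in tetrasporophytes, 19.8 and 56.9 RPKM in males, and 0.0025 and 0.040 RPKM in females. The other 8164 transcripts that reached 10 RPKM in both tetrasporophyte and male had medians of 25.9 RPKM in tetrasporophytes, 25.01 RPKM in males and 23.9 RPKM in females. The 46 thus had the lower tetrasporophyte median of these sets and a male median close to that of the rest. They made up 0.288% of the summed RPKM of the tetrasporophyte, 0.467% of that of the male and 0.00041% of that of the female.

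**Figure D1:**
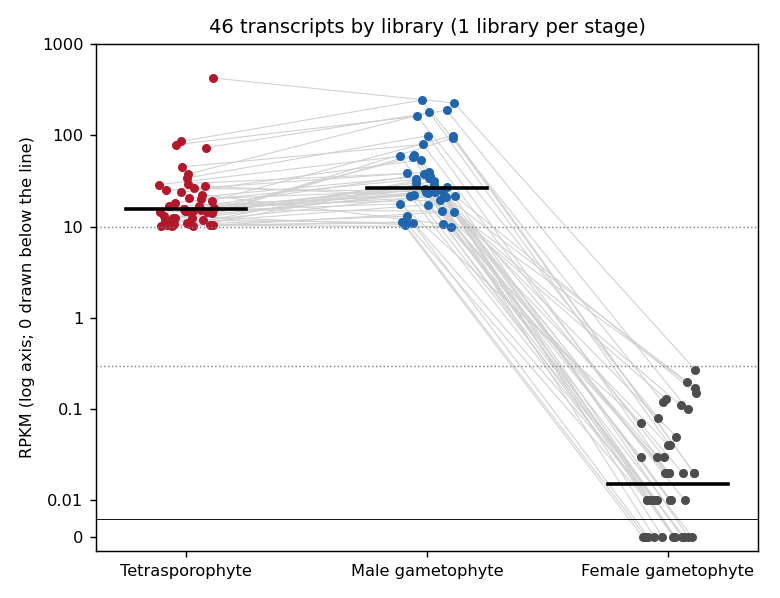
RPKM of each of the 46 transcripts in the tetrasporophyte, male and female library, on a log axis with values of 0 drawn below the solid line. Each point is a transcript, grey lines join its 3 values, black bars are medians (15.4, 26.4 and 0.015 RPKM), and dotted lines mark the 10 and 0.3 RPKM limits that picked the set.

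Most of the set sat far below the 0.3 RPKM limit in the female. There, 12 transcripts were listed at 0, which in files rounded to 2 decimals covers any level below 0.005 RPKM, and 21 were listed at 0.01 to 0.03 RPKM. A further 6 stood above 0.03 and up to 0.1 RPKM, and 7 stood above 0.1 RPKM. Female levels of 0.01 or 0.02 RPKM are rounded to a single digit, so ratios to the female are coarse for these transcripts. On the log2(RPKM + 1) scale, which understates ratios to so low a level, the tetrasporophyte exceeded the female by 3.27 to 8.39 (median 3.98) and the male exceeded the female by 3.46 to 7.77 (median 4.75). Both ranges start where the selection puts them.

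Transcripts with such levels in tetrasporophyte and male were seldom low in the female. Of the 8210 at 10 RPKM or more in both, 7206 were above 10 RPKM in females as well, 874 were above 3 and up to 10 RPKM, and 67 were above 1 and up to 3 RPKM. Only 17 lay above 0.3 and up to 1 RPKM, and the 46 at or under 0.3 RPKM are 0.56% of the total. Counted in these steps, the transcripts thinned out downward to 7 and 6 in the steps under 0.3 and 0.1 RPKM, and numbered 21 in the step of 0.01 to 0.03 RPKM. The low female group therefore piled up at the bottom of the measured range and not at its upper limit.

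Few transcripts lay close to the female limit, and more lay close to the limit of 10 RPKM. The members nearest the female limit stood at 0.27, 0.20 and 0.17 RPKM in females. The nearest ones outside stood at 0.31, 0.33 and 0.39 RPKM there. The transcript at 0.31 RPKM in females had 63.4 RPKM in tetrasporophytes and 16.1 RPKM in males, and that at 0.39 RPKM had 415 RPKM in tetrasporophytes and 296 RPKM in males. Among those left out for a female level up to 1 RPKM was also the most abundant of this kind, with 1343 RPKM in tetrasporophytes, 599 RPKM in males and 0.76 RPKM in females. On the limit of 10 RPKM, the lower of the tetrasporophyte and male value was under 11 RPKM for 10 of the 46. The lowest member values were 10.1 RPKM in tetrasporophytes and 10.01 RPKM in males, and 4 transcripts were left out with their lower value between 9 and 10 RPKM, the closest at 9.92 RPKM in tetrasporophytes and 10.8 RPKM in males.

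The most abundant member in both stages at once was ISGT_8221. It had 424 RPKM in tetrasporophytes, 225 RPKM in males and 0.27 RPKM in females, and ranked 100 in the tetrasporophyte library and 234 in the male library. Without a pseudocount its level was 1572 times the female's in the tetrasporophyte and 835 times in the male. It was the only member above 100 RPKM in tetrasporophytes, and also the one with the highest female level.

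ISGT_1992 was next by its lower value, with 85.5 RPKM in tetrasporophytes, 243 RPKM in males and 0.12 RPKM in females. It was the highest member in the male, at rank 208 of that library. Its level without a pseudocount was 713 times the female's in the tetrasporophyte and 2022 times in the male. Unlike ISGT_8221, it was lower in the tetrasporophyte than in the male, with a log2 ratio of -1.49.

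Another 3 members passed 100 RPKM in males. The first had 73.3 RPKM in tetrasporophytes, 188 RPKM in males and 0.10 RPKM in females. The second had 37.6 RPKM in tetrasporophytes, 178 RPKM in males and 0.04 RPKM in females. The third had 79.0 RPKM in tetrasporophytes, 161 RPKM in males and 0.08 RPKM in females. All 3 were lower in the tetrasporophyte than in the male. Below them the set thinned quickly: 16 of the 46 reached 20 RPKM in tetrasporophytes and 34 did so in the male, while 4 reached 50 RPKM in tetrasporophytes and 13 did so in the male.

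The tetrasporophyte held less of these RNAs than the male. Its level was below the male's for 38 of the 46 transcripts (82.6%), against 47.5% of all 8210 transcripts at 10 RPKM or more in both stages. The median log2 ratio of tetrasporophyte to male, on the log2(RPKM + 1) scale, was -0.73 over the 46 and 0.03 over the 8210. The SD of this ratio was 0.81 between the 46 transcripts and 0.90 between the 8210, and its quartiles were -1.18 and -0.29 over the 46 and -0.39 and 0.46 over the 8210. Without a pseudocount the median ratio of tetrasporophyte to male was 0.590. These sizes depend on the limits in one respect, that a transcript near 10 RPKM in males cannot be far lower in the tetrasporophyte and remain in the set, and the same holds the other way round. Both stages have the same limit.

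**Figure D2:**
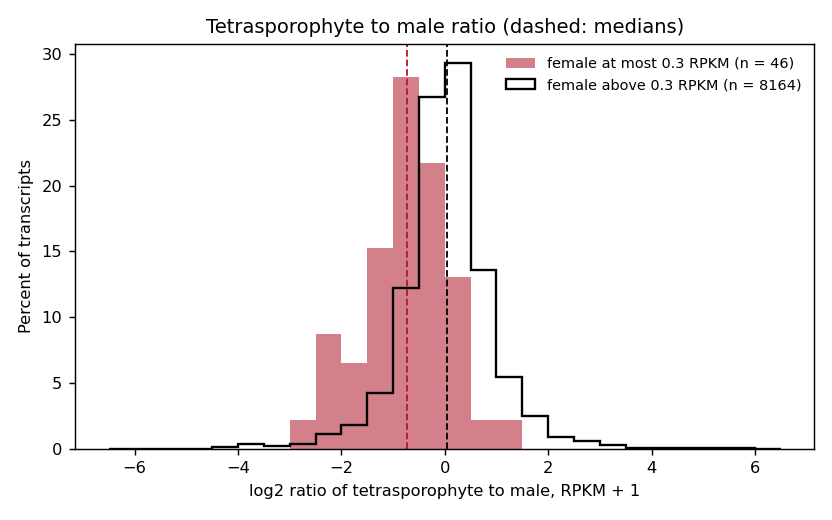
Percent of transcripts by log2 ratio of tetrasporophyte to male (RPKM + 1, steps of 0.5), for the 46 transcripts at most 0.3 RPKM in females (filled) and the 8164 above it (outline), all at 10 RPKM or more in both stages. Dashed lines are the medians, -0.73 and 0.03, and the filled bars lie mostly left of 0.

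At least 2-fold lower in the tetrasporophyte were 15 of the 46 transcripts (32.6%), against 8.51% of the 8210. Only 1 (2.17%) was at least 2-fold higher there, against 9.81% of the 8210. With a female ceiling of 1 RPKM, 6 of 63 were higher and 20 lower, so the low count of higher ones depended on the ceiling. The other 30 of the 46 were less than 2-fold apart, 23 of them below the male and 7 above it. At least 4-fold lower in the tetrasporophyte were 5 (10.9%), against 2.36% of the 8210. The set thus leaned toward the male at each of these sizes, and with single libraries no error can be put on the lean.

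ISGT_1343 had the lowest ratio, with 14.0 RPKM in tetrasporophytes, 93.0 RPKM in males and 0.02 RPKM in females. Its log2 ratio of tetrasporophyte to male was -2.64. ISGT_5946 followed with 10.7 RPKM in tetrasporophytes, 61.5 RPKM in males and 0.01 RPKM in females. Its log2 ratio was -2.42. Both lay near the limit in the tetrasporophyte while ranking 803 and 1429 in the male library. The other 3 that were at least 4-fold lower had 19.3, 37.6 and 11.9 RPKM in tetrasporophytes, against 99.1, 178 and 58.0 RPKM in males, each in the same order.

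On the opposite side, ISGT_10617 had 22.4 RPKM in tetrasporophytes and 10.6 RPKM in males, and was listed at 0 in the female. Its log2 ratio of tetrasporophyte to male was 1.00, the highest of the set. ISGT_8221 was second with 0.91. The third, at 0.37, had 27.6 RPKM in tetrasporophytes, 21.2 RPKM in males and 0.20 RPKM in females. The remaining 5 above the male differed little, with 10.3 to 26.2 RPKM in tetrasporophytes, 10.01 to 24.1 RPKM in males and log2 ratios of 0.04 to 0.29. Apart from ISGT_8221, the transcripts above the male were thus all of moderate level in both stages.

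The lean was seen at each level of abundance. Sorted by the geometric mean of the tetrasporophyte and male level, 24 members lay between 10 and 20 RPKM with a median log2 ratio of -0.45, 15 lay between 20 and 50 RPKM with -0.91, and 7 lay at 50 RPKM or more with -1.35. Over the other transcripts of the same bands the medians were 0.03, 0.04 and 0.01. Members below the male numbered 19 of 24, 13 of 15 and 6 of 7 in these bands. Sorting on the male level alone shifts the median ratio of a band, down for high male levels and up for low ones, and the members' medians were below those of the rest there too, with -0.12 against 0.24 for 10 to 20 RPKM, -0.78 against -0.04 for 20 to 50 RPKM, and -1.49 against -0.42 from 50 RPKM. Sorting on the tetrasporophyte level gave -0.68 against -0.17, -0.69 against 0.12 and -1.18 against 0.43 in the same bands, the last from 4 members.

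Both levels varied together within the set. Across the 46 transcripts, Pearson's r of log2 RPKM between tetrasporophyte and male was 0.75 and Spearman's rho of RPKM was 0.60, against 0.69 and 0.66 across the other 8164. The points share their libraries and are not independent replicates, so these values only describe the transcripts.

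Set out by female level, the ratio of tetrasporophyte to male was below 0 on the log2 scale in each step under the limit. Its median was -0.58 over the 12 transcripts listed at 0 in the female, -0.80 over the 21 at 0.01 to 0.03 RPKM, -0.82 over the 6 above these and up to 0.1 RPKM, and -0.44 over the 7 up to 0.3 RPKM. Above the limit it was -0.05 over the 17 transcripts up to 1 RPKM, 0.01 over the 67 up to 3 RPKM, -0.06 over the 874 up to 10 RPKM and 0.04 over the 7206 higher ones. Below the male were 33 of the 39 members at 0.1 RPKM or less in the female and 5 of the 7 above that. Of the 21 at 0.01 to 0.03 RPKM, 20 were below the male. Except for that of the 21, each step under 1 RPKM held fewer than 20 transcripts.

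**Figure D3:**
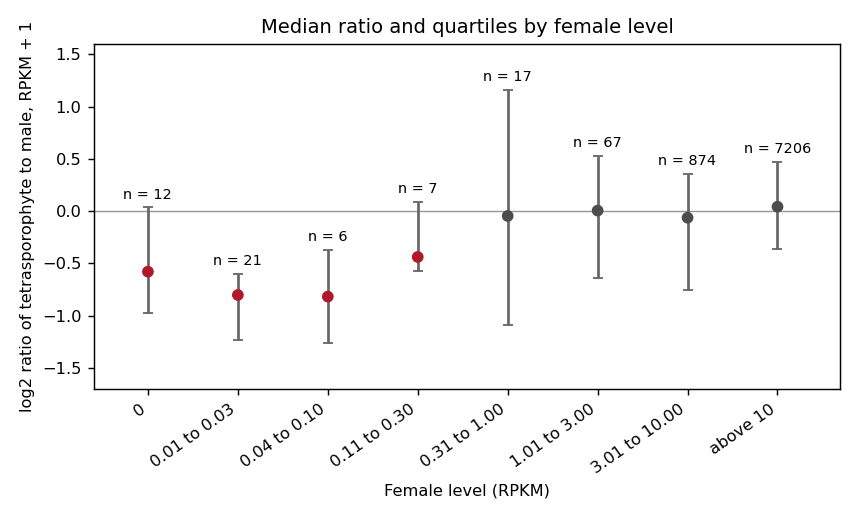
Median log2 ratio of tetrasporophyte to male (points, RPKM + 1) with quartiles (bars) by female level in RPKM, over the 8210 transcripts at 10 RPKM or more in both stages. The 4 red points are the 46 members, with medians between -0.82 and -0.44, and the 4 dark points lie between -0.06 and 0.04.

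Members listed at 0 in the female were less abundant than the others. They ran between 10.1 and 23.6 RPKM in tetrasporophytes (median 12.7) and between 10.01 and 58.0 RPKM in males (median 19.5). The 34 members above 0 in the female ran between 10.2 and 424 RPKM in tetrasporophytes (median 16.8) and between 11.04 and 243 RPKM in males (median 31.5). The highest female levels went with both kinds: ISGT_8221 and ISGT_1992 were above 0.1 RPKM there, and so were 5 members between 10.3 and 27.6 RPKM in tetrasporophytes and between 14.6 and 25.6 RPKM in males.

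The 46 were a minority of the transcripts that the tetrasporophyte or the male held at this level and the female lacked. In all, 318 transcripts reached 10 RPKM in males at 0.3 RPKM or less in the female, and the 46 are 14.5% of them. Of the rest, 176 were at 0.3 RPKM or less in the tetrasporophyte too or missing from its file. A further 31 stood above this and below 1 RPKM, and 65 stood between 1 and 10 RPKM. From the tetrasporophyte's side there were 274 such transcripts, counting those missing from the female file, and the 46 are 16.8% of them. There, 175 were at 0.3 RPKM or less in the male or missing from its file, 19 stood above this and below 1 RPKM, and 34 stood between 1 and 10 RPKM. From either side, transcripts near 0 in the other stage or missing from its file were more numerous than the 46 shared ones.

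The mirror pattern, 10 RPKM or more in tetrasporophyte and female with 0.3 RPKM or less in the male, was met by 39 transcripts, 0.505% of the 7729 at that level in both. After median-of-ratios scaling the counts were 39 for the set near 0 in the female and 46 for the mirror set, and with a female or male ceiling of 0.5 RPKM on the deposited values they were 52 and 54, so their order depends on the scaling and on the ceiling. Among the deposited values, transcripts of the mirror set sat higher in the stage that lacked them: 3 of the 39 were at 0.03 RPKM or less in the male, against 33 of the 46 in the female, while 27 of the 39 lay above 0.1 RPKM, against 7 of the 46. At exactly 0 there were 2 in the male, against 12 of the 46 in the female. How often each library lists any transcript at 0 or at 0.03 RPKM or less was not computed. A trait of the sets and one of the libraries therefore cannot be told apart here. The 92 transcripts abundant in both gametophytes and near 0 in the tetrasporophyte had 35 at exactly 0 and 27 at 0.01 to 0.03 RPKM there. Whether these differences exceed what single libraries give by themselves was not testable without replicates.

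**Figure D4:**
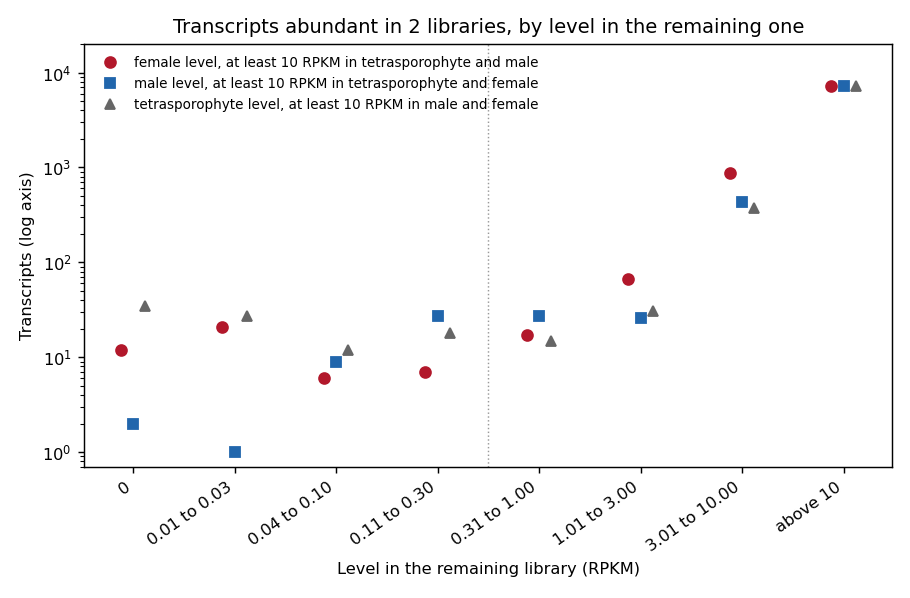
Number of transcripts (log axis) by RPKM in the remaining library, for transcripts at 10 RPKM or more in the other 2 libraries (red circles for the female as the remaining library, blue squares for the male, grey triangles for the tetrasporophyte). Left of the dotted line are the transcripts at most 0.3 RPKM, where the red circles peak at 21 transcripts at 0.01 to 0.03 RPKM and the blue squares at 27 in the step up to 0.3 RPKM.

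In the mirror set, the tetrasporophyte also held less than the gametophyte that expressed the RNA. Its median log2 ratio of tetrasporophyte to female was -0.51, against 0.01 over the 7729. Below the female were 28 of the 39 (71.8%), against 49.4% of the 7729. At least 2-fold lower in the tetrasporophyte were 12 of the 39 (30.8%), against 7.18% of the 7729, and 4 (10.3%) were at least 2-fold higher, against 9.29%. Both sets use the same tetrasporophyte library. In the 92 transcripts near 0 in tetrasporophytes, the log2 ratio of male to female had a median of -0.12, against -0.07 over the 7718 at 10 RPKM or more in both, and 55 (59.8%) were below the female, against 55.3%.

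Along the transcript numbers, each range counted here held some of the 46. Numbers up to 4000 held 19 of them, or 0.575% of the transcripts there at 10 RPKM or more in tetrasporophyte and male. Numbers above that and up to 12000 held 18 (0.698%), those from there to 39000 held 3 (1.14% of 263) and higher numbers held 6 (0.29%). No members had consecutive numbers, 2 members lay within 10 numbers of each other, and 15 had another member within 50. The same counts were not made for comparable transcripts, so these do not tell spread from clustering. The sources used here do not say what the order of the numbers stands for.

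Transcripts numbered next to a member did not share its pattern as a rule. Of 87 direct neighbours listed for the female, 11 (12.6%) were at 0.3 RPKM or less there. The share over all 30448 transcripts listed for the female was 33.8%. That share takes in ranges of numbers mostly at 0 in the female, where only 1 member lay. These shares thus cover unlike ranges, and a share for matched ranges was not computed. The neighbours' medians were 13.8 RPKM in tetrasporophytes, 13.0 RPKM in males and 12.6 RPKM in females. Among the neighbours, 46 were at 10 RPKM or more in tetrasporophyte and male, and 42 of those were so in the female as well. This is close to the share over all 8210 such transcripts, of which 7206 were above 10 RPKM in the female. Only 1 member, numbered 23388, lay in the 27 blocks of 500 numbers in which over 50% of the listed transcripts were at 0 in the female. It had 10.2 RPKM in tetrasporophytes and 11.2 RPKM in males and was listed at 0 in the female, and no other of the 8210 transcripts lay in these blocks.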

How the data were processed

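RNA abundance was deposited by the authors as RPKM per transcript, with 2 decimals (unit per the file headers). Per the labels' protocols, total RNA came from a TRI Reagent extraction and libraries followed Illumina's standard procedure. The sources used here name no assembler, aligner or counting tool. The 3 files were joined on the transcript number. Members had at least 10 RPKM in tetrasporophyte and male and at most 0.3 RPKM, or no value, in the female. Ratios used the deposited RPKM without further scaling, as log2 after adding 1 RPKM, with 2-fold as the threshold. With 1 library per stage no test was made. The named transcripts were the 2 highest and 2 lowest by the ratio of tetrasporophyte to male and the 2 with the highest lower value of both. One more is given by its number, chosen after its values were seen, and others are described without their numbers. Members, rules and limits were chosen with earlier results of these data known. Selection and fold counting were tested on simulated data. Python 3.11.15, numpy 2.4.6, pandas 2.3.3 and matplotlib 3.10.9 were used.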

Additional observations from a re-analysis of the deposited data

How the results depend on the processing

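The number of transcripts depended on the limits. Over all alternatives run on it, the median log2 ratio of tetrasporophyte to male stayed between -0.80 and -0.62. Of 72 recomputed values, 41 were within 1.5 times the reported ones. Some of these could not change, such as the 12 members at 0 in the female under other ceilings. The tally thus does not measure how robust the results are. Median-of-ratios scaling gave 39 members, against 46 in the set near 0 in the male, so the order of these 2 counts turned round. With each library scaled to a sum of 1000000, which changes what 10 and 0.3 mean, there were 98 members (0.875%), 77 transcripts near 0 in the male and 151 near 0 in the tetrasporophyte. A minimum of 5 RPKM gave 110 members (0.986%), 98 near 0 in the male and 170 near 0 in the tetrasporophyte, with 9 members higher and 27 lower in the tetrasporophyte, 46 at 0 in the female and 13 within 10 numbers of another. A minimum of 20 RPKM gave 15 members (0.348%), 8 and 29 in the other sets, 0 members higher, 7 lower and 1 at 0 in the female. A minimum of 1 RPKM, added after seeing the data, gave 524 members. A ceiling of 0.1 RPKM gave 39 members and 12 transcripts near 0 in the male, one of 0.5 RPKM gave 52 and 54, and one of 1 RPKM gave 63 and 66, so the order also turned with the ceiling. Ceilings of 0.5 and 1 RPKM raised the members higher in the tetrasporophyte to 3 and 6, and the ceiling of 1 RPKM gave 4 members within 10 numbers of another. A 4-fold threshold gave 0 higher and 5 lower, and a 1.5-fold threshold gave 2 higher and 28 lower. Shares of higher and lower transcripts over all features were not computed for minimums of 5 and 20 RPKM or for 1.5-fold. Those counts therefore have no background. Neighbouring members numbered 0 at a distance of 1 and 15 within 50. The cause of these shifts beyond the looser or stricter limits was not tested. No paired analysis was possible because there was 1 library per stage, and none could be left out. Without read totals, levels near 0 in the female cannot be given a counting limit.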
